A study of Homo sapiens with 10 samples.

Results

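The nuclear-encoded subunits of the mitochondrial respiratory chain and ATP synthase were followed in TPC-1, an established line of human papillary thyroid carcinoma. Members were protein-coding genes whose symbol follows the subunit names (NDUFA, NDUFB, NDUFC, NDUFS and NDUFV with a number, SDHA to SDHD, UQCR, CYC1, COX4 to COX8, ATP5). This rule used names only and no measured value, and it took 91 of the 58735 genes counted: 39 of complex I, 4 of complex II, 10 of complex III, 17 of complex IV and 21 of complex V. RNA was sequenced from control cells given the empty vector (EV, n = 5) and from cells given a vector for overexpression of the long non-coding RNA PTCSC3-AS1 (OE, n = 5). One table holds replicates 1 to 3 of each group, here the first set, and a separate table holds replicates 4 and 5, the second set. The sources used here do not give what separates the sets, nor whether replicates were separate cultures. A p-value below therefore weighs a difference only against the spread of these libraries, which may be of technical origin. All groups share a single cell line, and the level of PTCSC3-AS1 itself was not analysed here.

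Complexes I and II pass electrons from NADH and succinate to ubiquinone, complex III passes them on to cytochrome c, and complex IV reduces oxygen. Complexes I, III and IV pump protons across the inner mitochondrial membrane, and complex V, the ATP synthase, uses the returning protons to make ATP. Most subunits are encoded in the nucleus and imported, while a few core subunits of complexes I, III, IV and V are encoded in mitochondrial DNA. Respiratory genes are of interest in thyroid tumours because oncocytic forms of the disease are packed with mitochondria.

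Each library held 15761474 to 18066559 counts, and the members took 0.735 to 1.01% of them. Of the 91 members, 81 passed the low-count filter over all libraries (37 of complex I, 4 of complex II, 10 of complex III, 11 of complex IV and 19 of complex V). The share of counts was 0.209% ± 0.0403 (SD, n = 3) for complex I in EV of the first set and 0.212% ± 0.0117 (n = 3) in OE. Complex V had the largest share in every group, at 0.316% ± 0.0532 in EV and 0.312% ± 0.0161 in OE of the first set (n = 3 each). Epithelial markers of the thyroid list summed to 714 to 878 CPM (read counts scaled to library size with TMM factors), with 2 of 10 at 0 in all libraries. Fibroblast markers summed to 6.45 to 9.80 CPM, leukocyte markers to 0.281 to 1.61 CPM and endothelial markers to 0.297 to 1.203 CPM. In such bulk RNA, fewer cells of a kind and less RNA per cell cannot be told apart.

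Levels per gene length (RPKM, from the counts and the deposited gene length) spanned a wide range within each complex. In complex V, ATP5F1B, the catalytic beta subunit of the F1 head (ENSG00000110955, hg38 chromosome 12, 56638175 to 56646068, minus strand), was the highest of all members, at 369 ± 33.3 RPKM in EV and 373 ± 11.5 in OE (SD, n = 5 each). Its partner ATP5F1A, the alpha subunit, present in equal number in the head, stood at 64.3 ± 7.54 RPKM in EV. Much of this gap comes from the division by length, which is 10908 bases for ATP5F1A and 2322 for ATP5F1B. The length counts all annotated exon bases of a gene, so orders by RPKM can differ from orders by CPM. ATP5PO, the stalk subunit OSCP, was at 9.02 ± 2.64 RPKM, but 62.6% of its coding bases overlap exons of another annotated gene. ATP5IF1, which inhibits the synthase when it runs in reverse, stood at 16.5 ± 3.02 RPKM.

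In complex I, NDUFS5, a small accessory subunit, led at 138 ± 43.5 RPKM in EV. The core subunits that carry flavin, iron-sulfur clusters or the quinone site were lower per length: NDUFS8 at 21.5 ± 3.94, NDUFV1 at 20.7 ± 3.33, NDUFS3 at 18.14 ± 4.06, NDUFS1 at 11.6 ± 0.692 and NDUFS7 at 3.55 ± 0.895 RPKM in EV. This order depends on the division by length, with 548 bases for NDUFS5 and 12268 for NDUFS1. In CPM, NDUFS1 held 129 to 149 in EV and NDUFS5 at most 116.8. Complex II was even in comparison. SDHB, its iron-sulfur subunit, stood at 40.2 ± 7.36 RPKM, SDHA, the flavoprotein, at 23.9 ± 1.88, and the membrane anchors SDHD and SDHC at 21.3 ± 3.69 and 9.67 ± 1.22. Here too the order depends on length, which is 14160 bases for SDHC and 2462 for SDHB.

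CYC1, which carries the haem of cytochrome c1 (ENSG00000179091, hg38 chromosome 8, 144095027 to 144097525, plus strand), led complex III at 175 ± 48.4 RPKM in EV. UQCRC1, a core protein, was at 72.3 ± 11.2 and UQCRFS1, the Rieske iron-sulfur protein, at 45.1 ± 7.36 RPKM. In complex IV, COX8A, a small subunit that spans the membrane (ENSG00000176340, hg38 chromosome 11, 63974607 to 63976543, plus strand), led at 135 ± 48.5 RPKM. COX5A, COX4I1, COX5B and COX6C, which surround the mitochondrially encoded core, stood at 72.1 ± 11.1, 55.3 ± 10.7, 45.9 ± 8.26 and 43.2 ± 12.3 RPKM.

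**Figure D1:**
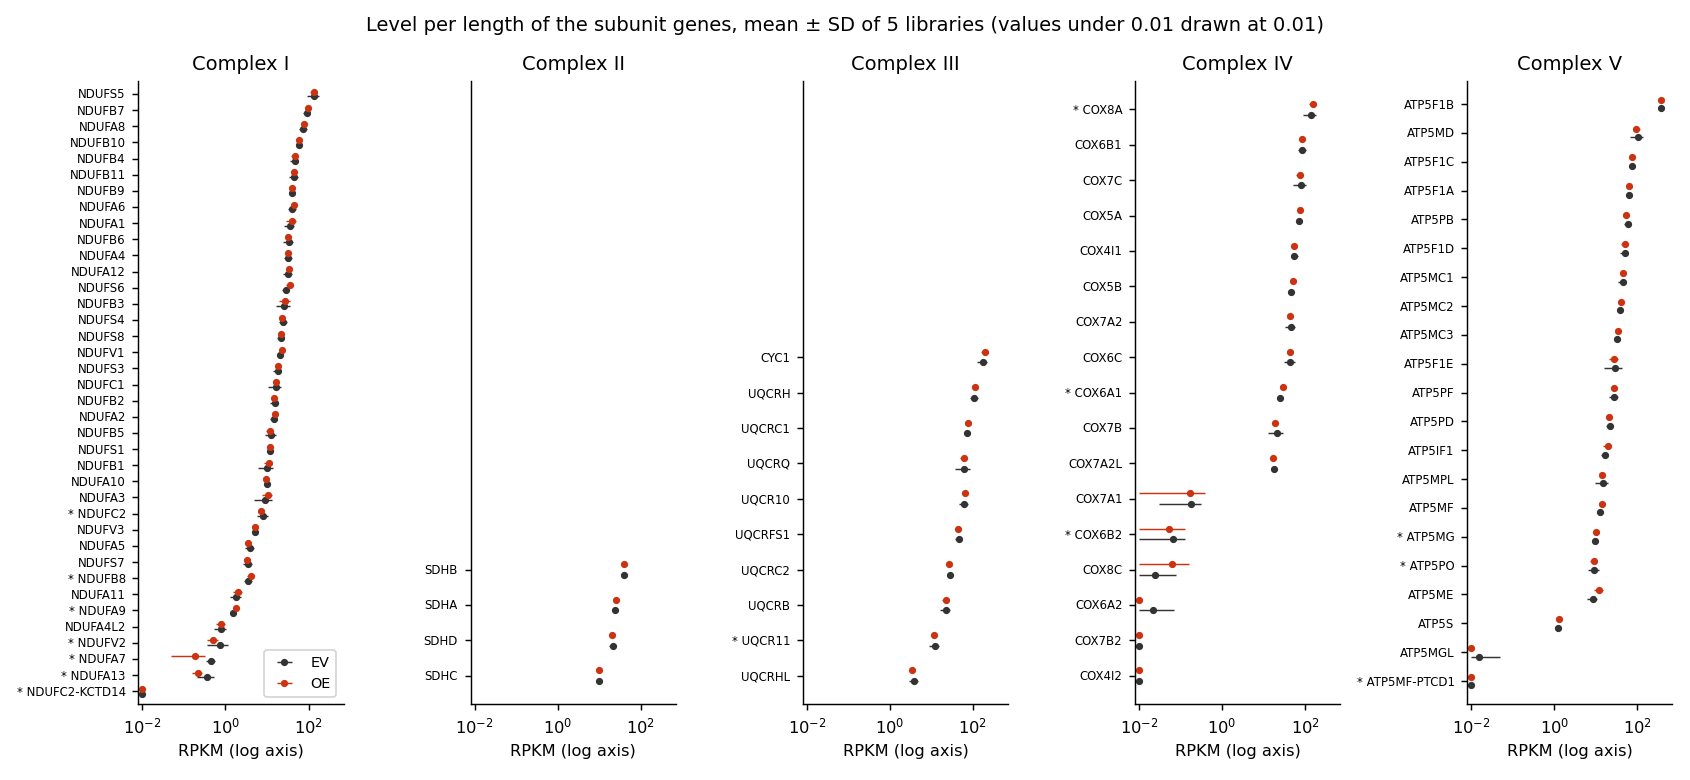
Mean RPKM ± SD of the 5 EV libraries (black) and the 5 OE libraries (red) on a log axis, for the members of each complex. ATP5F1B lies furthest right at 369 RPKM in EV, and an asterisk marks genes with at least 50% of coding bases shared with another annotated gene, of which 7 of 14 lie under 2 RPKM.

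Low values went with shared annotation. The 63 members whose coding bases overlap no other gene had a median of 32.8 RPKM over all libraries, and the 14 members with at least 50% of coding bases shared had a median of 2.71, with 7 of them under 2 RPKM. NDUFV2, an iron-sulfur subunit of the NADH-binding arm, shares 84.7% of its coding bases with AP005263.1 and stood at 0.756 ± 0.406 RPKM in EV. A pseudogene named after NDUFV2 held up to 62 counts in a library, and whether reads passed between the 2 was not tested. NDUFA13 shares 55.2% with AC011448.1 and YJEFN3 and stood at 0.366 ± 0.164, and NDUFA7 shares 78.3% with AC010323.1 and RPS28 and stood at 0.441 ± 0.105. A read in a shared exon may be left uncounted by a gene-level counter, and the part of this in these low values was not tested. COX8A, with 55.1% shared, and UQCR11, with 100% shared, were nevertheless at 135 and 12.2 RPKM in EV.

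Isoforms of complex IV known from particular tissues were at or near 0. COX4I2, an isoform of lung and low-oxygen cells, and COX7B2 had no count in any library, so each lies under the floor of 3 counts (0.166 to 0.190 CPM, counting error only). COX6A2 and COX7A1, the heart and skeletal muscle isoforms, reached at most 0.0573 and 0.513 CPM. COX6B2, a testis isoform, was at most 0.712 CPM, but 100% of its coding bases are shared with AC020922.1, and COX8C at most 0.114 CPM. Their widely expressed counterparts stood at 55.3 ± 10.7 (COX4I1), 24.9 ± 3.78 (COX6A1), 85.4 ± 19.8 (COX6B1), 45.1 ± 12.2 (COX7A2), 21.0 ± 8.49 (COX7B) and 135 ± 48.5 (COX8A) RPKM in EV. COX7A2L, which helps join complexes III and IV into supercomplexes, stood at 17.5 ± 1.81 RPKM. Without the division by length, COX7A2L (5605 bases) stood above COX7A2 (1922 bases) in the mean over all libraries.

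NDUFA4, named for complex I but found in complex IV by structural work, was at 32.8 ± 6.56 RPKM in EV against 0.767 ± 0.239 for its hypoxia-inducible paralog NDUFA4L2. UQCRH, the hinge protein between the cytochromes of complex III, stood at 107 ± 22.8 RPKM and UQCRHL at 3.82 ± 0.886. Their coding sequences have 276 bases each and are identical at 272 of them (98.6%), so reads may not tell these genes apart and the UQCRHL value is uncertain.

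ATP5MC1, ATP5MC2 and ATP5MC3 encode the c subunit of the membrane ring that turns as protons pass. Their translated products of 136, 141 and 142 residues end in 77 identical residues, which hold the mature subunit after the import signal is cut off. The stretches coding for them differ at 57 of 231 positions, so the 3 genes can be counted apart although they make the same mature protein. They are shown 5′ to 3′ from GENCODE 29 without the stop codon, with capitals where the 3 are not all alike.
ATP5MC1: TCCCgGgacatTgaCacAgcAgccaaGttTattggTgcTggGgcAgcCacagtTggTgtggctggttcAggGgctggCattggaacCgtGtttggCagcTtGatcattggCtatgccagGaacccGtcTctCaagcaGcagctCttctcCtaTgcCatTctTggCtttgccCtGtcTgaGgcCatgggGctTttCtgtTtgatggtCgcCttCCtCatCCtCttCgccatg
ATP5MC2: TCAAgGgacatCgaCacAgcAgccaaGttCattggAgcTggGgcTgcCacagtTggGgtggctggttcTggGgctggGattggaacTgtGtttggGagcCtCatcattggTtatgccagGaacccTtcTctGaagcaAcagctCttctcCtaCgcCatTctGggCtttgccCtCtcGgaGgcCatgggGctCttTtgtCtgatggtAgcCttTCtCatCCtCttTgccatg
ATP5MC3: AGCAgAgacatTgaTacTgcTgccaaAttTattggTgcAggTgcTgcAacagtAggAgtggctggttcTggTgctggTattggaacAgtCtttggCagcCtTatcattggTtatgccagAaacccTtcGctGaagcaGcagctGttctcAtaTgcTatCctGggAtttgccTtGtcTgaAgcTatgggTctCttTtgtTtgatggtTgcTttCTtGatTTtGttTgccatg
Identity over these bases was 88.3% between ATP5MC1 and ATP5MC2 and 80.1% between ATP5MC3 and each of the others. Per length, ATP5MC1 stood at 43.9 ± 9.43, ATP5MC2 at 38.5 ± 6.28 and ATP5MC3 at 33.2 ± 4.92 RPKM in EV (SD, n = 5), ranges that overlap. Without the division by length the order turned, since ATP5MC3 held 214, 279, 191, 211 and 229.7 CPM in EV and ATP5MC1 held 104, 154, 87.1, 111 and 119. None of the 3 differed between OE and EV by edgeR's quasi-likelihood test (Benjamini-Hochberg adjusted p = 0.96, 0.97 and 0.97).

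EV replicate 2 stood apart from the other 9 libraries in the members of every complex. In each library, the deviation of a member was taken as its log2 CPM minus its mean over the 10 libraries. In EV replicate 2 the median deviation was 0.41, with 74 of 81 members above 0, while the other EV libraries lay between -0.18 and -0.049. The medians there were 0.48 for complex I, 0.27 for complex II, 0.45 for complex III, 0.42 for complex IV and 0.37 for complex V. OE replicate 1 came next, at 0.16, and the remaining OE libraries lay between -0.081 and 0.063.

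Other measures moved with EV replicate 2. Cytosolic ribosomal proteins had a median deviation of 0.45 there, with 79 of 81 above 0, and the 13 mitochondrially encoded subunits one of 0.12. The deviation of all 14217 tested genes ran against gene length in this library (r = -0.31 with log10 length across genes, a description), and the members are short, with a median length of 2615 bases against 4777 over all tested genes. With a smooth trend on length removed, the members' median in EV replicate 2 was 0.26, and with trends on GC content and length removed it was 0.23. What set this library apart was not tested. The OE and EV comparisons and the set comparison below are given with it and, for their counts, medians and core subunits, also without it.

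**Figure D2:**
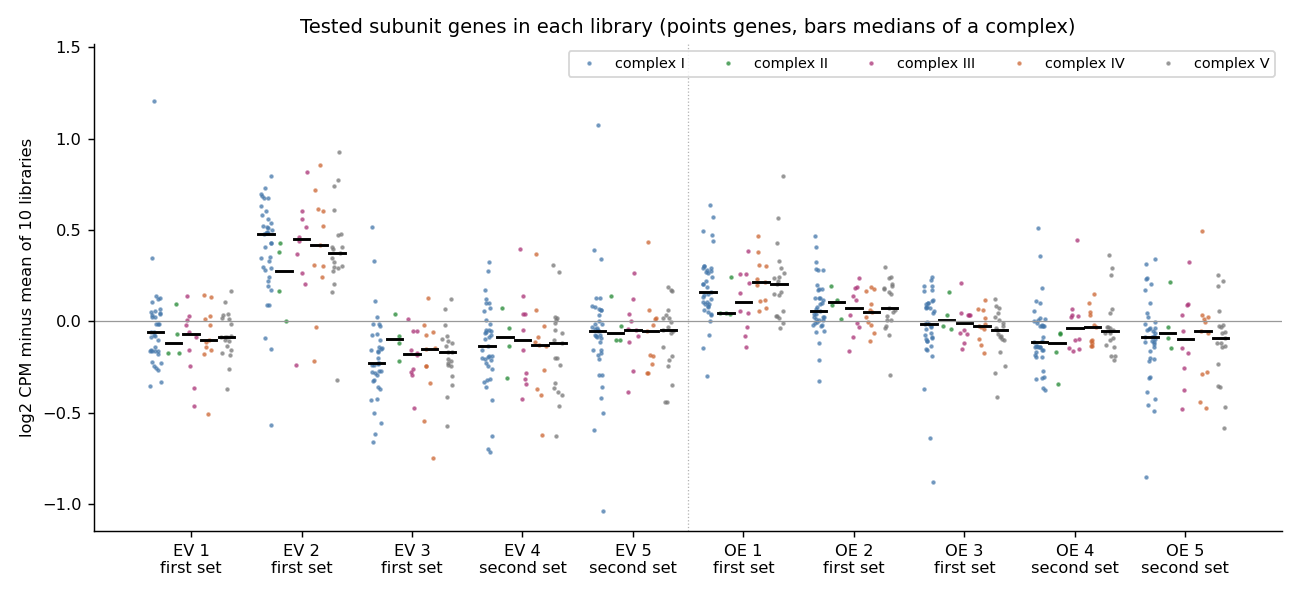
Log2 CPM minus the mean of 10 libraries for the 81 tested members (points, coloured by complex) in each library, with black bars at the median of each complex. All 5 medians of EV replicate 2 lie between 0.27 and 0.48, above those of every other library.

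Across both sets, OE and EV cells did not differ in any member at the threshold. With edgeR's quasi-likelihood test and the set as a term, 0 of 81 members had an adjusted p under 0.05, upwards or downwards, against 0% of 14217 genes in either direction. At an unadjusted p under 0.05, 3 members were higher in OE (3.70% of those tested, against 3.18% of all genes) and 1 was lower (1.23%, against 2.53%), shares near the background. DESeq2 and limma-voom also called 0 members. The median log2 change was 0.0093 over the members and -0.0028 over all genes, and 43 of 81 members were above 0. By complex the medians were 0.022 for I, 0.0087 for II, -0.0065 for III, -0.022 for IV and 0.0093 for V. Within a group and set, the complex medians of single libraries had an SD of 0.13 to 0.22, and of 0.037 to 0.087 without EV replicate 2.

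These medians rest on EV replicate 2. This library was marked by its high values in the same members, so leaving it out raises their change in OE by construction. Without it the members' median was 0.13 over both sets, with 74 of 81 above 0, beside 0.0055 over all genes. The complex medians were then 0.13 for I, 0.089 for II, 0.15 for III, 0.12 for IV and 0.13 for V. Again 0 members passed edgeR's quasi-likelihood test (lowest adjusted p = 0.32). At an unadjusted p under 0.05, 26 members (32.1%) were higher in OE, against 7.65% of 14448 genes, and 1 was lower, against 4.62%. Of the 26, 13 belong to complex I, 6 to complex III, 4 to complex IV and 3 to complex V.

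For 5 of the core subunits, the 95% intervals bound what a change could be. For ATP5F1B the change was 0.014 (SE 0.069), with an interval of -0.13 to 0.16. SDHA lay at 0.073 (SE 0.074) with an interval of -0.085 to 0.23 and NDUFS1 at 0.022 (SE 0.065) with -0.12 to 0.16. COX4I1 was at -0.016 (SE 0.11) with an interval of -0.25 to 0.22, and UQCRFS1 at -0.021 (SE 0.10) with -0.23 to 0.18. Without EV replicate 2 the changes and their intervals were 0.076 (-0.024 to 0.18) for ATP5F1B, 0.10 (-0.047 to 0.24) for SDHA and -0.013 (-0.12 to 0.10) for NDUFS1. They were 0.12 (-8.9e-05 to 0.25) for COX4I1 and 0.10 (-0.023 to 0.22) for UQCRFS1. COX4I1, UQCRFS1 and NDUFS1 changed sign between the fits, and none of the 5 passed in either. Other core subunits had intervals above 0 without EV replicate 2: NDUFV1 (0.26, 0.11 to 0.40), COX5B (0.30, 0.12 to 0.47) and CYC1 (0.20, 0.060 to 0.33). UQCRC1 (0.19, 0.062 to 0.33), NDUFS8 (0.17, 0.027 to 0.32) and COX5A (0.15, 0.019 to 0.29) did so too. The intervals of NDUFS3, NDUFS7, SDHB, SDHC, SDHD, COX6C, ATP5F1A and ATP5PO held 0 there. None of these passed edgeR's test after adjustment.

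The members with the smallest p came from several complexes. ATP5ME, the membrane subunit e of ATP synthase, held 8.10, 11.3 and 6.12 CPM in EV and 16.01, 10.5 and 9.47 CPM in OE of the first set, and 6.99 and 6.70 CPM in EV and 11.8 and 8.44 CPM in OE of the second set. In the second set both OE libraries were above both EV libraries, and in the first set OE replicates 2 and 3 lay below EV replicate 2. Its log2 change was 0.52 (SE 0.18), with an unadjusted p of 0.0130 and an adjusted p of 0.85 by edgeR's quasi-likelihood test, and 43.96% of its coding bases overlap MYL5. NDUFS6, a zinc-binding subunit of complex I, held 40.2, 55.2 and 34.8 CPM in EV and 67.0, 49.2 and 51.5 CPM in OE of the first set, and 33.4 and 42.5 CPM in EV and 42.5 and 43.5 CPM in OE of the second set. EV replicate 2 exceeded OE replicates 2 and 3 there, and the change was 0.29 (SE 0.13) with an adjusted p of 0.85. CYC1 was 0.17 higher in OE (SE 0.071, adjusted p = 0.85), and NDUFA13, at 0.342 to 1.66 CPM in all libraries, was -0.75 (SE 0.35, adjusted p = 0.85), both without passing edgeR's test.

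**Figure D3:**
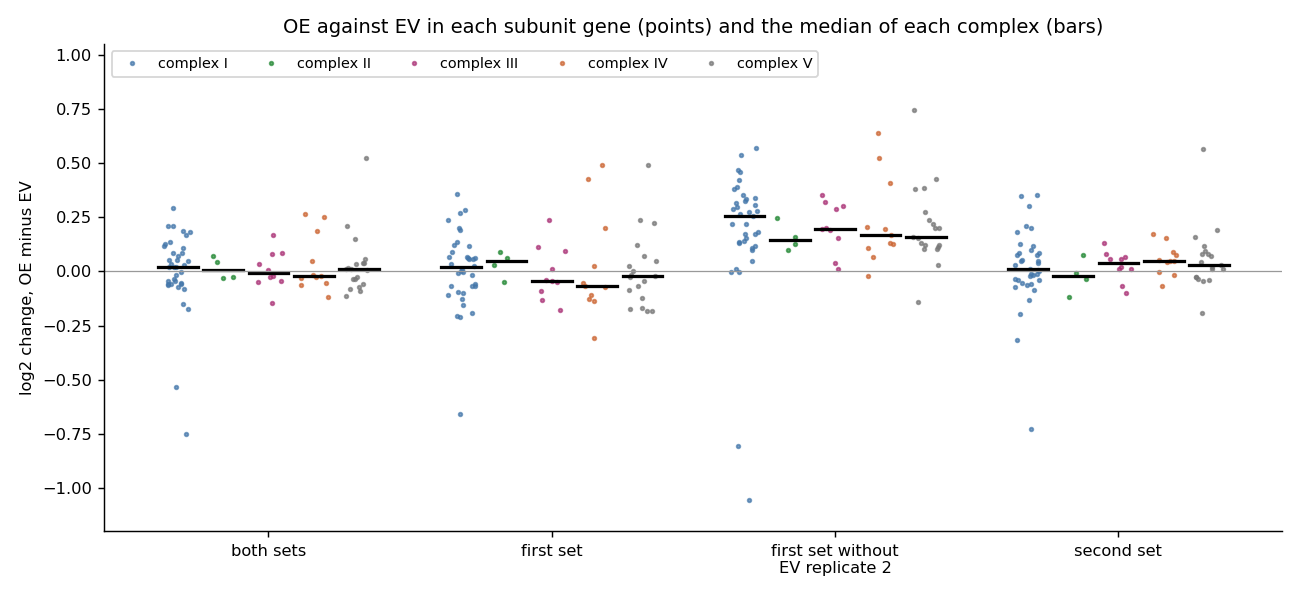
Log2 change of OE over EV for each member (points, coloured by complex) in 4 fits, with black bars at the median of each complex. With all libraries the bars lie near 0 over both sets and in each set. They lie between 0.14 and 0.26 in the first set once EV replicate 2 is left out.

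Within the first set, 0 of 80 tested members passed, against 0% of 14340 genes called higher in OE and 0.0349% called lower. At an unadjusted p under 0.05 there were 3 members, COX8A, COX6A1 and CYC1, all higher in OE (background 4.37%), and 0 lower (background 4.47%). The same 3 were the members whose OE libraries all lay above all EV libraries, where 9.15% of genes did so, and NDUFV2 was the 1 member with all OE libraries below, where 7.86% of genes did so. COX6A1, a subunit of complex IV with 53.5% of coding bases shared with AL021546.1, held 33.7, 35.4 and 24.8 CPM in EV and 49.98, 37.5 and 39.3 CPM in OE of the first set, and its change was 0.43 (SE 0.16) with an adjusted p of 0.50 by edgeR's test. COX8A held 50.3, 61.5 and 42.6 CPM in EV and 88.3, 66.5 and 63.3 CPM in OE of the first set, a change of 0.49 (SE 0.16) (adjusted p = 0.46), and it passed edgeR's test when no low-count filter was used (0.50, adjusted p = 0.023). The gap between the groups was narrow for COX8A, from 61.5 CPM in EV replicate 2 to 63.3 CPM in OE replicate 3.

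Leaving out EV replicate 2 changed the outcome of the first set. That library had been marked by its high values in these same members, so leaving it out raises their change in OE by construction. OE replicate 1, the next highest in the members, was kept. The calls below are therefore not a separate test of overexpression. With 2 EV against 3 OE libraries, 25 of 81 members (30.9%) were higher in OE at an adjusted p under 0.05 by edgeR's quasi-likelihood test, against 6.07% of 14769 genes, and 0 were lower, against 4.62%. Called members were spread over all complexes, with 12 of 37 in complex I, 1 of 4 in complex II, 3 of 10 in complex III, 3 of 11 in complex IV and 6 of 19 in complex V. The median changes were 0.26, 0.14, 0.20, 0.17 and 0.16 in complexes I to V.

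Leading among them were COX8A at 0.64 (SE 0.11, adjusted p = 0.00038), NDUFS6 at 0.57 (SE 0.11) and CYC1 at 0.30 (SE 0.065). NDUFV1, which binds NADH and flavin, was at 0.35, COX5B at 0.41, COX6A1 at 0.52, ATP5MC1 at 0.39, UQCRC1 at 0.29 and SDHD at 0.25. For NDUFV1 the libraries read 91.4, 117 and 81.5 CPM in EV and 122, 108 and 103 CPM in OE of the first set, so that EV replicates 1 and 3 were below all OE libraries and EV replicate 2 lay between them. Leaving out any other library of the first set called 0 members, and whether the library or the remaining contrast stands for the cells was not tested.

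In the second set, 0 of 81 members passed edgeR's test, against 0% of 14419 genes in either direction. Groups of 2 libraries leave little precision. ATP5ME at 0.57 (SE 0.22) and NDUFA3, an accessory subunit of complex I, at 0.35 (SE 0.14) had an unadjusted p under 0.05, both higher in OE (background 0.589%, and 0 members lower against 0.506%). Both OE libraries lay above both EV libraries in 11 of 81 members (background 12.3%) and below in 7 (background 12.7%). ATP5F1A was among the 7, at 702 and 692 CPM in EV and 678 and 680.2 CPM in OE of the second set, a change of -0.035 (SE 0.07). SDHD, a membrane anchor of complex II, was another, at 62.4 and 58.5 CPM in EV and 52.9 and 58.1 CPM in OE of the second set and -0.12 (SE 0.10).

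The change with overexpression was also compared between the sets. No member passed edgeR's test of the interaction, where 0.00703% of genes were higher and 0% lower in the second set. COX8A had the smallest p of the members, with a change that was -0.57 in the second set relative to the first (unadjusted p = 0.0372, adjusted p = 1). The members' median in the interaction was 0.037, with 47 of 81 above 0. Without EV replicate 2 that median was -0.17, beside -0.021 over all genes. There 7 of 81 members were above 0, and again 0 passed. In that fit 14 of 81 had an unadjusted p under 0.05 in edgeR's test, against 1304 of 14448 genes. In the authors' deposited table, which compares OE replicate 4 with EV replicate 4 and OE replicate 5 with EV replicate 5, 0 of 83 and 0 of 84 members had an adjusted p under 0.05. Each of these sets 1 library against 1 other, and in that deposited table the members' median log2 fold changes were 0.062 and -0.015.

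The sets themselves differed in the members. With the group as a term, 20 of 81 members (24.7%) were lower in the second set than in the first, against 9.17% of all genes, and 4 (4.94%) were higher, against 9.27%. The median log2 change was -0.15 over the members and -0.0012 over all genes, and 60 of 81 members were below 0. The medians of complexes I to V were -0.16, -0.11, -0.14, -0.15 and -0.15. Part of this median rests on EV replicate 2: without it the members' median was -0.038, with 50 of 81 below 0, while all 24 calls stood. In that fit 30 members passed, 7 higher and 23 lower, where 1995 of 14448 genes were higher and 1855 lower. The complex medians were then -0.045, -0.0099, -0.045, -0.019 and -0.051. What the sets differ in cannot be told apart from these data.

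CYC1 rose, with the smallest adjusted p of all members. It held 275, 301 and 255 CPM in EV and 347, 317 and 320.2 CPM in OE of the first set, and 468 and 426 CPM in EV and 483 and 445 CPM in OE of the second set. Every library of the second set was above every library of the first, in both groups. The change was 0.60 (SE 0.072), with an adjusted p of 0.00018 by edgeR's quasi-likelihood test. CYC1 was the 1 member with all second-set libraries above all first-set libraries, where 8.68% of genes showed this.

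COX8A held 92.5 and 96.6 CPM in EV and 79.2 and 101 CPM in OE of the second set, against 42.6 to 88.3 CPM in the first set, with OE replicate 1 of the first set above OE replicate 4. Its change between sets was 0.60 (SE 0.14) (adjusted p = 0.0095). NDUFA11, a membrane-arm subunit of complex I with 37.8% of coding bases shared with other genes, held 6.92, 8.33 and 5.57 CPM in EV and 10.7, 7.66 and 6.85 CPM in OE of the first set, and 10.8 and 11.7 CPM in EV and 12.7 and 10.5 CPM in OE of the second set, so that the sets overlapped through OE replicate 1, and rose by 0.58 (SE 0.15, adjusted p = 0.019). ATP5F1D, the delta subunit of the central stalk, rose by 0.40 (SE 0.11, adjusted p = 0.021), with 126 to 135 CPM in the second set and 85.3 to 127 in the first, where EV replicate 2 lay above EV replicate 5.

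NDUFB3, a membrane-arm subunit of complex I (ENSG00000119013, hg38 chromosome 2, 201071433 to 201085750, plus strand), had the largest fall among the members that passed. NDUFV2 had a larger fitted change, -0.90 (SE 0.32), which did not pass (adjusted p = 0.063, edgeR). NDUFB3 held 31.0, 43.7 and 30.3 CPM in EV and 39.7, 39.0 and 31.7 CPM in OE of the first set, and 17.1 and 19.9 CPM in EV and 22.7 and 19.96 CPM in OE of the second set. The highest library of the second set, OE replicate 4, was below the lowest of the first. The change was -0.85 (SE 0.12), with an adjusted p of 0.00045 by edgeR's test. In 14 of 81 members all second-set libraries lay below all first-set libraries, where 7.88% of genes did so.

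Other accessory subunits of complex I fell with it: NDUFA3 (-0.77), NDUFB1 (-0.66), NDUFB5 (-0.56), NDUFS5 (-0.51), NDUFC1 (-0.48), NDUFA1 (-0.47) and NDUFB4 (-0.37), with adjusted p of 0.0044 to 0.039 by edgeR's test. The core subunits of complex I named here did not pass. NDUFS1 was at -0.037 (SE 0.066), NDUFS3 at -0.16 (SE 0.12), NDUFS8 at 0.01 (SE 0.11), NDUFV1 at 0.23 (SE 0.092) and NDUFS7 at 0.37 (SE 0.13), with adjusted p of 0.071 or more.

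In complex II, SDHC alone passed. It held 147, 155 and 142 CPM in EV and 163, 158 and 154 CPM in OE of the first set, and 111 and 129 CPM in EV and 109 and 125 CPM in OE of the second set. The second set was lower in every library, with a change of -0.37 (SE 0.072) (adjusted p = 0.0034, edgeR). SDHA, SDHB and SDHD were at 0.068 (SE 0.075), -0.14 (SE 0.10) and -0.074 (SE 0.11).

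In complex III, UQCRQ (-0.60), UQCRB (-0.47) and UQCRH (-0.32) fell. UQCR10 at -0.30 (SE 0.12), UQCR11 at 0.13 (SE 0.15), UQCRC1 at 0.038 (SE 0.10) and UQCRFS1 at -0.0073 (SE 0.10) did not pass. In complex IV, COX7B (-0.62), COX7C (-0.56), COX6C (-0.41) and COX7A2 (-0.39), accessory subunits, fell, with adjusted p of 0.011 to 0.031, while COX8A rose. COX7C held 163, 243 and 140.3 CPM in EV and 182, 167 and 149 CPM in OE of the first set, and 112 and 121 CPM in EV and 134 and 106 CPM in OE of the second set, with no overlap between sets. COX4I1, COX5A, COX6A1 and COX7A2L did not pass, at 0.0085 (SE 0.11), -0.034 (SE 0.10), 0.0052 (SE 0.12) and -0.019 (SE 0.079).

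In complex V, ATP5F1E, the epsilon subunit of the central stalk, fell by 0.77 (SE 0.16, adjusted p = 0.0062, edgeR). It held 139.7, 258 and 148 CPM in EV and 183, 156 and 143 CPM in OE of the first set, and 87.7 and 99.9 CPM in EV and 123 and 90.4 CPM in OE of the second set. EV replicate 2 was far above the rest, and the second set was still lower than the remaining libraries of the first. ATP5MD, a small subunit of the membrane part, fell by 0.56, ATP5PF, the coupling factor F6 of the outer stalk, by 0.40, and ATP5IF1 by 0.38. The head subunits ATP5F1A and ATP5F1B were at -0.025 (SE 0.081) and 0.067 (SE 0.07), so in complex V the delta and epsilon subunits, neighbours in the stalk, moved in opposite directions between the sets.

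**Figure D4:**
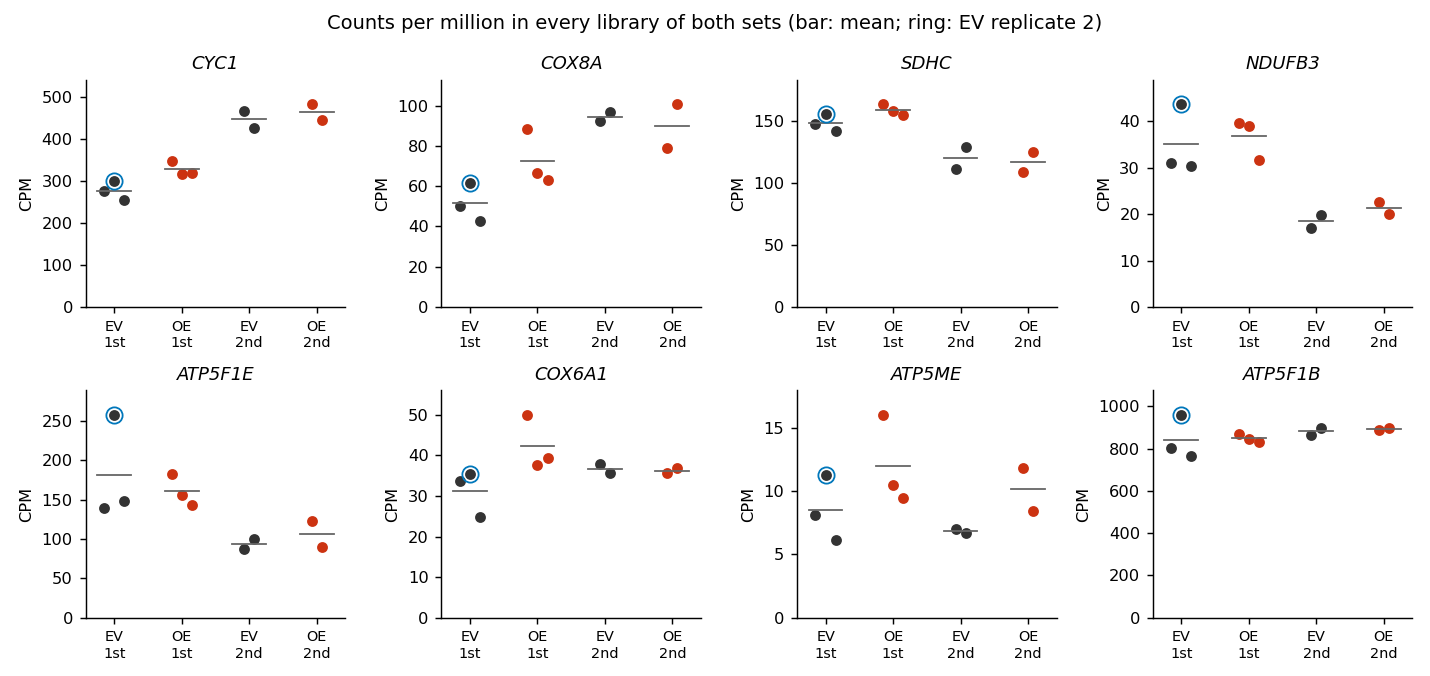
CPM of 8 members in every library, by group and set, with bars at the mean and a ring around EV replicate 2. CYC1 separates the sets upwards and SDHC and NDUFB3 downwards, while ATP5F1B lies between 765 and 960 CPM in all libraries.

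The set difference was also fitted within each group. From OE libraries alone, 26 members passed, 2 higher and 24 lower in the second set, where 881 of 14675 genes were higher and 988 lower. The members' median was -0.17, with 61 of 81 below 0. From EV libraries alone, 0 members passed, the median was -0.13 and 61 of 82 were below 0, while 61 genes in all passed there. That EV median rests on EV replicate 2: without it, a fit chosen after the data were seen, the EV median was 0.050, with 33 of 82 below 0. In that fit 16 members passed, 7 higher and 9 lower, where 997 of 14556 genes were higher and 890 lower. The downward shift of the members as a whole was thus not seen in EV without that library. All 24 called members kept their sign in every alternative tried, including EV without that library, where 13 of them passed. Without EV replicate 4, 7 of the 24 passed.

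Base composition moved with the set difference. The 4 members that rose had exons of 58.6 to 67.6% GC (median 62.6%), the 20 that fell 38.2 to 58.6% (median 44.4%), and the 57 not called had a median of 48.6%. Across the 81 members the change correlated with GC content at r = 0.55, and across all 14217 genes at r = 0.22, descriptions over genes that share the same libraries. With an offset for GC content and length in the fit, chosen after the data were seen, 22 of the 24 calls remained, those lost being UQCRH and NDUFB4, and the members' median was -0.086.

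**Figure D5:**
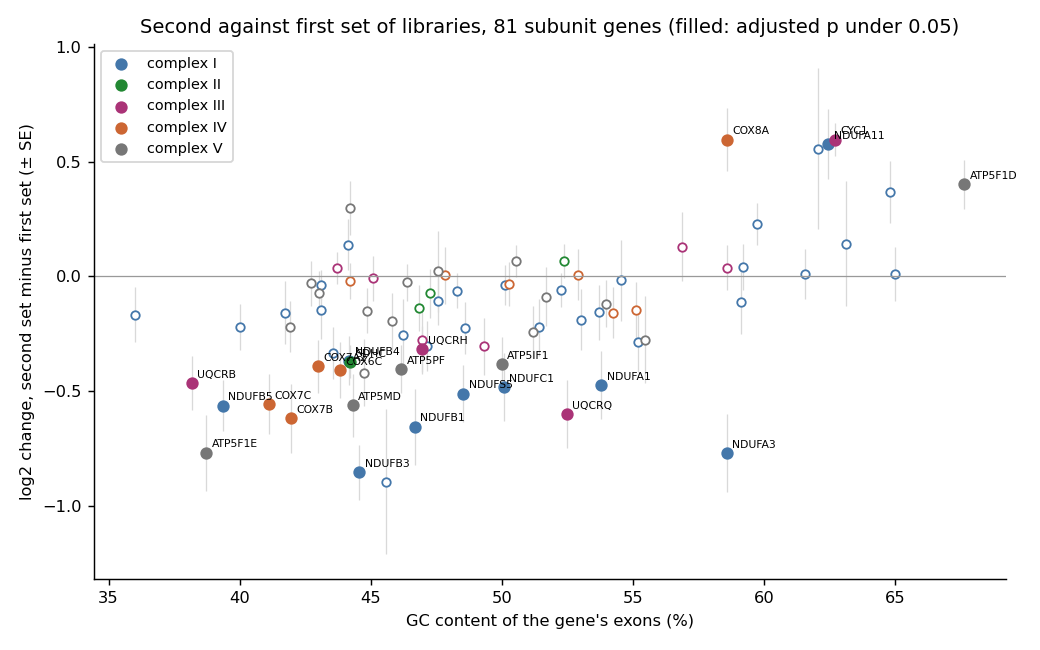
Log2 change between the sets (± SE) against exon GC content for the 81 tested members, coloured by complex and filled where the adjusted p is under 0.05. The 4 filled points above 0 lie at 58.6% GC or higher and most filled points below 0 lie under 50%, with NDUFA3, at 58.6%, the exception furthest to the right.

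The contrast is visible in the coding sequences. The starts of the reading frames of the 3 members that rose and are shown here (CYC1 is left out) and of the 5 with the largest falls among those that passed are printed 5′ to 3′ from GENCODE 29, with each G and C in capitals. COX8A and ATP5F1E are whole and the others stop at base 210.
COX8A: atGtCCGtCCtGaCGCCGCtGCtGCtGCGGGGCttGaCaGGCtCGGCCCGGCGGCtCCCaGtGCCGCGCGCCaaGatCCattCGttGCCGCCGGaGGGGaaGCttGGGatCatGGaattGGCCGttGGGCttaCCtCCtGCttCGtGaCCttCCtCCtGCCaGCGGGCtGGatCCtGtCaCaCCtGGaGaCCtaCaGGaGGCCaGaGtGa
NDUFA11: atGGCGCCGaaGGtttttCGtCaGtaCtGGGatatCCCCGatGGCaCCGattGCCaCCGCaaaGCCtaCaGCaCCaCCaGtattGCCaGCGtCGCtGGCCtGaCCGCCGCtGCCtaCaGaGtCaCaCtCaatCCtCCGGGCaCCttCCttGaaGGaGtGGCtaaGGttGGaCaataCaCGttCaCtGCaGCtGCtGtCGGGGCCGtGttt
ATP5F1D: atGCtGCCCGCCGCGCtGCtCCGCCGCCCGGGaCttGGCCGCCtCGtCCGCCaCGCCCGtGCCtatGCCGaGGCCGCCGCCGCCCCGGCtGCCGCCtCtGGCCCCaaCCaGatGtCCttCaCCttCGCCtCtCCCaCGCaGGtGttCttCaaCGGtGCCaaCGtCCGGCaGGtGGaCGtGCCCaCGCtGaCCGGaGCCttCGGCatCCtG
NDUFB3: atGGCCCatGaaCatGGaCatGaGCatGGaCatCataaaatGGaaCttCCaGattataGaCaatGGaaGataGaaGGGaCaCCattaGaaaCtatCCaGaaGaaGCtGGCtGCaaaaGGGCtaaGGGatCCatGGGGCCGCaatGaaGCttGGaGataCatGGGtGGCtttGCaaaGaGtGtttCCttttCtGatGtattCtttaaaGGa
NDUFA3: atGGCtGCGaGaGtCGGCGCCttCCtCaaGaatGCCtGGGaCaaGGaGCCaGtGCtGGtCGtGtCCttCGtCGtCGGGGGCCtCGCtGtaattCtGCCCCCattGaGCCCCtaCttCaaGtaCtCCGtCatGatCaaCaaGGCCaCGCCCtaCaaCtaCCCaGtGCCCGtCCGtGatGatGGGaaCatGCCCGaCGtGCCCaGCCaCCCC
ATP5F1E: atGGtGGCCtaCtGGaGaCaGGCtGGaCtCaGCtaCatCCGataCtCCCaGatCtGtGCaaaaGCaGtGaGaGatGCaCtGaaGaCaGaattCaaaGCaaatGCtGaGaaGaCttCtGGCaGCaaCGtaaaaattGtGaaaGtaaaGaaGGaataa
NDUFB1: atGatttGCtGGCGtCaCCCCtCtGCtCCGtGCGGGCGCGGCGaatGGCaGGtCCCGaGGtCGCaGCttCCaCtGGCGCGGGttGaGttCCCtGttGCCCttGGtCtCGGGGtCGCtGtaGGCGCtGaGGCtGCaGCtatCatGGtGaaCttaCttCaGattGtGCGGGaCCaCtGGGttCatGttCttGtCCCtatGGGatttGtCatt
COX7B: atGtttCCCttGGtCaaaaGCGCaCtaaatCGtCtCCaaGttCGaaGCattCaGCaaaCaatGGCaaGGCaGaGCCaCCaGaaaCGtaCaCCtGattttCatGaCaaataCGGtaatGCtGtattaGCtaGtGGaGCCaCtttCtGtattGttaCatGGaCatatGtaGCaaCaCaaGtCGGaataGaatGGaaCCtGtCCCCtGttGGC
Over the bases shown, GC made up 65.2% in COX8A, 58.1% in NDUFA11 and 72.4% in ATP5F1D, and 43.3% in NDUFB3, 44.2% in ATP5F1E and 44.3% in COX7B. NDUFA3 at 61.0% and NDUFB1 at 59.0% fell, with starts above that of NDUFA11 and below those of COX8A and ATP5F1D. For each gene a single annotated transcript was used, the longest frame among those of equal rank. The NDUFB1 frame used has 318 bases, and other frames of this gene, whose starts may differ in GC, were not compared. At the third codon position, where most changes leave the protein alike, the median was 78.7% GC in the members that rose, 51.4% in those that fell and 57.8% in those not called.

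Members share promoter motifs that the name rule did not use. RefSeq promoters (GRCh38.p14, 250 bases before to 50 after the start) were matched for 68 of 91 members. The NRF1 motif GCGCATGC, on either strand, was in 13 of them (19.1%), against 4.3% of 15842 coding promoters. The ETS motif CCGGAAG, bound by GABP, was in 19 (27.9%, against 14.2%), and AAGATGGC, a YY1 motif, in 11 (16.2%, against 3.9%). The end of the ETS motif and the start of the YY1 motif share the letters AAG, so 1 stretch can match both. Of the matched members 35 held none of the motifs, 25 held 1 kind, 6 held 2 kinds, and SDHB and ATP5PF held all 3. A match is a description of letters, not of binding.

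A pair of complex IV promoters is printed. They were chosen for matching 2 kinds of motif and for the position of the annotated gene start, not by measured values. Both stretches are given up to the annotated gene start, 5′ to 3′, at chr2:97645812-97646039 (COX5B) and chr12:120437863-120438089 (COX6A1), both on the plus strand of GRCh38.p14, with matches to the 3 motifs in capitals. The ETS match of COX6A1 lies past the printed end, so only NRF1 matches are in capitals there.
COX5B: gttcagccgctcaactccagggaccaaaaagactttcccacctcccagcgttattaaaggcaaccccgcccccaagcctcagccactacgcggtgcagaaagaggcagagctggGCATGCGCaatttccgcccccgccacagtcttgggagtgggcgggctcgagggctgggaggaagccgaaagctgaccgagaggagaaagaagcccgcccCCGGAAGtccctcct
COX6A1: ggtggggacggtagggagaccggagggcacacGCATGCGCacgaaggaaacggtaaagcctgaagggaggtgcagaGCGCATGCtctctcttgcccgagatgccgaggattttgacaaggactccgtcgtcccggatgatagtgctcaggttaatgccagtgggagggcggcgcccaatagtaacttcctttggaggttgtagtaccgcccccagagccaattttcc
COX5B held 63.6, 86.6 and 55.5 CPM in EV and 91.2, 73.2 and 73.4 CPM in OE of the first set, and 64.0 and 61.4 CPM in EV and 71.9 and 67.4 CPM in OE of the second set, where OE replicate 1 was the highest and EV replicate 2 next. Of the 14 matched members that fell between sets, 2 held the NRF1 motif, 4 the ETS motif and 2 the YY1 motif.

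The partners of the members were called in few cases. Of the 13 mitochondrially encoded subunits, 0 passed edgeR's test between OE and EV, but all 13 were below 0, with a median of -0.12 beside 0.0093 for the nuclear members (without EV replicate 2, -0.13 with 1 of 13 above 0, beside 0.13). MT-ND1 and MT-ND2, core subunits of complex I, had the smallest p, at -0.17 (SE 0.059 and 0.058, adjusted p = 0.85 each, edgeR). Between the sets, 2 of the 13 rose and 3 fell. The mitochondrially encoded genes took 4.10 to 5.08% of counts.

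Assembly factors, which insert cofactors or join subunits, were measured as lists of 18 (complex I), 4 (II), 6 (III), 24 (IV, 23 of them tested) and 4 (V) genes. None was called between OE and EV, and their medians were 0.0032, -0.051, -0.027, -0.038 and -0.070 (without EV replicate 2, 0.10, -0.019, 0.029, 0.058 and 0.0073). The gene with the smallest p in each list was ECSIT (0.20), SDHAF1 (0.19), UQCC3 (0.38), PET100 (1.124, at a median of 0.963 CPM) and ATPAF1 (-0.18). Of these UQCC3 and PET100, which help assemble complexes III and IV, had an unadjusted p under 0.05 in edgeR's test, at 0.0055 and 0.0067. The next in each were FOXRED1 (0.11), SDHAF3 (-0.20), UQCC2 (0.12), CMC2 (-0.23) and TMEM70 (-0.12), and all 10 had adjusted p of 0.85 or more by edgeR's test. Between the sets, FOXRED1 (0.40) rose and TIMMDC1 (-0.32) fell among complex I factors, SDHAF4 (-0.43) fell among those of complex II and TTC19 (0.35) rose among those of complex III, all named after their values were seen. For complex IV factors 3 rose and 3 fell. Regulators of mitochondrial gene expression were called in 0 of 13 tested cases between OE and EV. ESRRA, a nuclear receptor that drives respiratory genes, had the smallest p of that list, with 58.9 CPM at the median, a change of 0.23 and an unadjusted p of 0.0087 by edgeR's test, and TFB2M, a mitochondrial transcription factor, came next at -0.12. NRF1, named for its motif, was at -0.034.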

How the data were processed

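The unit of the main files is the raw count of reads per gene, deposited by the authors in one table for replicates 1 to 3 and another for replicates 4 and 5, with a gene length in bases. The second table also holds the authors' deposited log2 fold change and adjusted p-value for each OE library against the EV library of the same number, 1 library against 1, so these compare libraries and not conditions. The tools named, per the submitters' processing notes, are HISAT2 2.0.5, DESeq2 1.20.0, CASAVA 1.8, featureCounts 1.5.0-p3 and fastp, with the build hg38, and 14 further per-sample columns (normalized values) were not used. The sources used here do not give whether counting used strand.

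Counts were tested with edgeR 4.0.16 (R 4.3.3): filterByExpr, TMM scaling, quasi-likelihood test, prior count 2, Benjamini-Hochberg adjustment over all genes tested, threshold 0.05. OE was compared with EV over both sets (set as a term), within each set and by the interaction with set, and the sets were compared with group as a term. Alternatives used DESeq2 1.42.0, limma 3.58.1 (voom), upper-quartile scaling, no low-count filter, a length offset, each library left out, a replicate block and, chosen after the data were seen, a GC and length offset and the EV libraries without replicate 2. CPM use TMM-scaled totals, and RPKM divide them by the deposited length. At 15761474 to 18066559 counts a library, the floor of 3 counts is 0.166 to 0.190 CPM, for counting error only. No replicate was treated as a duplicate, since pairs within a group gave a chi-square of 4.30 to 53.1 for each degree of freedom (genes of 20 counts or more). On simulated counts the test recovered 51% of changes of log2 size 0.5 and 83% of size 1 over both sets (14217 genes), 31% and 77% in the first set (14340 genes) and 17% and 71% in the second (14419 genes). The simulated libraries held no set difference and no library set apart like EV replicate 2. Each gene was given the spread typical of its level, so these rates hold for that simpler setting only.

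The members and gene lists were chosen with earlier results of these data known. Named members are those that passed the threshold in a comparison, the one of lowest p in each complex and comparison, the highest and lowest by RPKM in each complex, a set of core subunits, the paralog groups and ATP5IF1. The values of 1 member of complex I that this rule names are not reported here, though it is counted in all totals and medians. From each other list of the respiratory machinery that is described, the rule took the 2 genes of lowest p between OE and EV, and list genes named for their change between sets, NRF1 among regulators, and NDUFV2, UQCR10 and UQCR11 beside the calls were added after their values were seen. Overlaps and coding sequences came from GENCODE 29, which holds all 91 members at the same span. Of names that match the member rule, 149 pseudogenes took 0.0011 to 0.0023% of counts. This total leaves out the pseudogenes of SDHA to SDHD, whose names the rule does not match. Those of SDHA held up to 297 counts in a library and those of SDHD up to 36. Within the total, the pseudogenes of UQCRFS1 held up to 145 counts, those of COX6A1 up to 106 and that of NDUFV2 up to 62.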

Additional observations from a re-analysis of the deposited data

Results flagged for a closer look

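Several values stood apart from the other libraries of their group, by a gap to the nearest library that is large against the group's whole range. Chance alone marks about 1 in 20 groups in this way, and most of the values come from 1 library, so they are not independent of each other.

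EV replicate 2 lay above the other EV libraries in the median deviation of the members, at 0.4091 over all, 0.4775 in complex I, 0.2726 in complex II, 0.4511 in complex III, 0.4202 in complex IV and 0.3735 in complex V. Its share of counts was also above the rest in complex I (0.2551%), complex IV (0.151%) and complex V (0.3768%). Single members marked in this library were NDUFA4 at 158.1 CPM, NDUFS3 at 92.62 CPM and NDUFS5 at 116.8 CPM. SDHB stood at 131.0 CPM and UQCRQ at 152.5 CPM. COX5B was at 86.62 CPM, COX6B1 at 112.8 CPM, COX7A2 at 126.8 CPM and ATP5MC2 at 196.6 CPM.

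Among OE libraries, replicate 1 lay above the others in ATP5MC1 (145.5 CPM), COX5B (91.23 CPM) and COX6A1 (49.97 CPM). OE replicate 5 was above in NDUFS7 (32.41 CPM), whose coding bases overlap other genes at 48.45%, and OE replicate 4 was below in the share of counts of complex II (0.04526%).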

How the results depend on the processing

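No member passed between OE and EV over both sets, in the second set or in the interaction under any alternative run, but without EV replicate 2 the members' median over both sets moved from 0.0093 to 0.13. In the first set 1 member passed with no low-count filter, and leaving out a library gave 0 to 25, the 25 without EV replicate 2. Between the sets the count was 24, with 7 to 30 when a library was left out (7 without EV replicate 4) and 0 from EV libraries only (16 from these without replicate 2). All 24 members kept their sign throughout, while 34 of the 52 named members changed sign at least once between OE and EV over both sets. In the second set, leaving out a library moved the median change of complex II from -0.107 to 0.0168, of complex III from -0.0195 to 0.0509, of complex IV from 0.00181 to 0.115 and of complex V from -0.0234 to 0.0437, all with a lone library on 1 side that is assumed to vary like the others. The cause of these shifts was not tested.

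Over all genes, calls between OE and EV over both sets were 0, against 6 by DESeq2 and 23 with no low-count filter. In the first set they were 5, against 76 by DESeq2, 90 with no filter, 18 with the length offset and 1578 without EV replicate 2. The interaction had 1, against 9 by DESeq2 and 28 with no filter, and the second set 0, against 1 and 12. The set comparison had 2621, against 1312 without EV replicate 4 and 3850 without EV replicate 2. From EV libraries only it had 61, and 1887 from these without replicate 2. With the replicate number as a block, 0 members passed over both sets, in the first set and in the second, while 71 genes passed in the second. The samples were not treated as pairs in the main fits. Deviations of libraries with the same number correlated at -0.11, 0.0035 and 0.16 in the first set, where different numbers gave -0.19 to 0.20. In the second set the same number gave 0.31 and different numbers -0.31. With 2 libraries a group these values mirror each other by construction, so the check cannot decide whether the numbers pair the second set. At this depth, members under a few CPM, such as NDUFA13 and NDUFV2, have wide errors.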
